A study of Homo sapiens with 20 samples.

Results

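The protein components of the cytosolic ribosome were followed through an induction experiment on the RNA-binding protein ZFP36, also called tristetraprolin. Members were taken by symbol alone: every probe set whose platform annotation named exactly 1 gene, with a symbol of RPL, RPS or RPLP followed by a number and at most 1 of the letters A, L, X or Y, or the symbol RPSA. S6 kinases and pseudogenes were left out. This rule gave 49 genes, of 19353 genes with a probe set of their own, and 82 probe sets, of 50441 on the array. Of the 49, 18 belong to the small subunit and 31 to the large subunit. The rule used no measured value. A further 12 ribosomal protein genes, among them RPL4, RPL5, RPL10 and RPS3A, were named only together with another gene and are not members.

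All arrays came from HEK293 cells, a human embryonic kidney line. The EGFP-ZFP36 line was made in Flp-In T-REx HEK293 cells, which carry a tetracycline repressor and 1 recombination site for a transgene. The methods call the other line parental HEK293 cells. There were 5 arrays in each of 4 groups. Induced EGFP-ZFP36 cells carried a stable transgene for human ZFP36 fused to EGFP and received doxycycline at 1 µg/ml for 16 h. Mock-induced cells were the same line given sterile water. The parental line, which lacks the transgene, received doxycycline (parental doxycycline) or vehicle (parental vehicle). According to the methods, induced cells were sorted for EGFP fluorescence and mock-induced cells with fluorescent cells excluded. Cells of several flasks were pooled for each array, and flasks of this line given doxycycline were sparser, with more rounded or detached cells. Sort gate, confluence and the transgene therefore moved together between induced and mock-induced cells and cannot be told apart. The transgene line is a single engineered line. Its cells were also passaged at a higher dilution and grown for longer before treatment than parental cells, as the methods describe. Its differences from the parental line therefore cannot be told apart from those of its derivation or of culture. The same holds for any effect of doxycycline that differs between the lines.

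Ribosomal proteins fold around the ribosomal RNAs to form the small subunit, which decodes the mRNA, and the large subunit, which joins amino acids and guides the new chain out through a tunnel. Most are made in equal amounts, and in mammals most of their mRNAs begin with a C followed by a run of pyrimidines, the 5′ terminal oligopyrimidine (TOP) tract, through which the kinase mTOR and the binding protein LARP1 control their translation and stability. ZFP36 itself binds AU-rich elements in 3′ untranslated regions and recruits the enzymes that shorten the poly(A) tail. Ribosomal protein mRNAs are long-lived, abundant transcripts and are often used as references when other mRNAs are measured.

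The TOP tract was read directly from the annotated start sites, a feature that the choice of members did not use. RefSeq promoter windows on GRCh38.p14 were found for 42 of the 49 genes. A C at the annotated start followed by 4 bases that were each C or T, searched on the transcript strand at that position only, was present at a start of 30 of the 42 genes (71.4%), against 5.14% of the 27305 genes in the table. Counted by window, the shares were 61.2% of 49 windows and 4.07% of 35116 windows. The starts shown are a selection, of members discussed below and of RPL22L1, which is not a member. The share of tracts among them therefore does not describe the members. RPL11, called below between the lines, is not shown and had annotated starts with a tract of 8 bases and with none. Each sequence has 10 bases before the start and 20 from it on, 5′ to 3′ on the transcript strand. Capitals mark the unbroken pyrimidine tract that begins with the start base.
RPS27L, chr15:63157458-63157487, minus strand: gatgccgagcgcagatcgcttgcagcttgc
RPS27, chr1:153990752-153990781, plus strand: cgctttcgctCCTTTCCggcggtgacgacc
RPL31, chr2:101002279-101002308, plus strand: ccttcgcgctCTTCCTTTCCaacttggacg
RPL22, chr1:6199576-6199605, minus strand: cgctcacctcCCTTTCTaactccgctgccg
RPL22L1, chr3:170870176-170870205, minus strand: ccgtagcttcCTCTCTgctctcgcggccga
RPL14, chr3:40457329-40457358, plus strand: ggtcttcttcCTTCTCgcctaacgccgcca
RPL36A, chrX:101391001-101391030, plus strand: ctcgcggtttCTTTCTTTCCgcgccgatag
RPLP1, chr15:69452808-69452837, plus strand: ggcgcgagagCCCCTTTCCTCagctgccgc
RPL39, chrX:119791611-119791640, minus strand: ccgccagcttCCCTCCTCTTCCTTTCTCCg
RPS27L had no tract at its annotated start, whereas its close relative RPS27 had one of 7 bases. The tract was 10 bases long in RPL31 and RPL36A, 11 in RPLP1 and 19 in RPL39. A match of this kind describes letters at an annotated start and is not evidence of control through it, and annotated starts can lie some bases away from the start used in a given cell.

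Signal is given as the deposited log2 value. A gene is represented by its brightest probe set, and 48 of the 49 genes had a mean above 4.5 in at least 1 group and were tested. The exception, RPL3L, a form of RPL3 made in heart and skeletal muscle, stayed between 2.19 and 2.27 on all 20 arrays, the level of probe sets without signal. Most other members lay at the opposite end of the scale. The mean over the 20 arrays was above 15 for 38 members, and on every array each of these was brighter than at least 99.6% of probe sets, with 16.6 as the highest value anywhere. The remaining 10 ran from a mean of 5.18 for RPLP2 to 13.8 for RPL22. For RPLP2, RPL36A and RPL27A, a far brighter probe set names a second gene as well and is not counted here. Of all 82 genes tested with a mean above 15, 46.3% were ribosomal proteins. Replicates were close, and the median SD over members was 0.039 for induced arrays, 0.038 for mock-induced ones, 0.040 for parental doxycycline ones and 0.054 for parental vehicle ones. Whether probes of such high signal were near their maximum was not tested, and a probe near its maximum would show less than the true difference.

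Across the series, hybridization controls averaged 12.2 ± 0.10 on induced and 12.1 ± 0.12 on mock-induced arrays (SD, n = 5 each, exact two-sided permutation p = 0.143). Poly-A RNA controls, added to the RNA before labelling, averaged 8.80 ± 0.24 on induced and 8.43 ± 0.18 on mock-induced arrays (exact two-sided permutation p = 0.0238), and the excess of the actin probe set nearest the mRNA's 3′ end over the one nearest its 5′ end was 1.31 ± 0.13 on induced and 1.52 ± 0.14 on mock-induced arrays (exact two-sided permutation p = 0.0476). The part of these controls in the results was not tested, other than by centring the arrays on them. The probe set for ZFP36 read 4.56 to 5.78 in induced and 4.85 to 5.92 in mock-induced cells. The sources used here do not place its probes within or outside the transgene, so it checks no label. Of 8 markers of HEK293 cells, 7 had a probe set and 5 were tested, and their mean level was 6.02 to 6.15 on induced and 5.49 to 5.60 on mock-induced arrays, with LHX1 and SOX11 at background. Of the 5, 1 was called lower and 3 higher. EYA1 differed by -1.06, at 4.44 ± 0.19 in induced cells and 5.50 ± 0.09 in mock-induced cells. PAX2 differed by 2.10, at 4.86 ± 0.44 in induced and 2.77 ± 0.01 in mock-induced cells. Its mean was above 4.5 only in induced cells, so that the filter itself favoured a call of higher. NEFL and NEFM were the other 2 higher. NEFM averaged 5.81 in induced and 3.87 in mock-induced cells, but 12.3 in both parental groups. Between mock-induced and parental vehicle cells, 2 of the 5 markers were called lower and 2 higher (80.0%, against 24.0% of all genes). The 6 blood cell markers with a probe set were at background everywhere, at 2.63 or less on every array. Of 7 fibroblast and endothelial markers, DCN, LUM, PECAM1, VWF and CDH5 were not above 3.40 on any array, while the collagens COL3A1 and COL1A1 were called higher in induced cells, by 3.08 and 2.31 on the log2 scale. The mean level of that list was 3.99 to 4.07 on induced and 3.22 to 3.37 on mock-induced arrays.

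Few ribosomal protein mRNAs were called after induction of EGFP-ZFP36, although most genes tested were. A gene was called where limma's Bonferroni-adjusted p, over all 10834 genes tested, was under 0.01. Of the 48 members, 1 fell (RPS27L) and 2 rose (RPL31 and RPL22), and 45 were not called. That is 6.25% of the members, against 5623 of 10834 genes tested (51.9%), with 28.8% higher and 23.1% lower. The median log2 difference, induced minus mock-induced, was 0.11 over members and 0.20 over all genes tested, and the median of its size without regard to sign was 0.12 over members and 0.84 over all genes. The methods describe experiments on separate days and, for parental cells, pairs of treated and untreated cells, but the labels tie no replicate number to a day. With the replicate number as a block, RPS27L was the only member called, and RPL31 and RPL22 missed the threshold with unchanged differences (limma, Bonferroni-adjusted p = 0.0142 and 0.116). In bulk RNA a lower share of a transcript and fewer cells that hold it cannot be told apart.

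Beyond the called genes, small positive differences were common among members but depended on the scaling. The difference was positive for 43 of the 48 as deposited, for 24 on hybridization controls and for 4 on poly-A controls. Arrays of the 2 groups did not overlap for 27 of 48 members, against 8667 of 10834 genes (80.0%). At a Benjamini-Hochberg adjusted p under 0.05, 22 members were higher and 2 lower, when 9499 genes (87.7%) passed, 50.5% higher and 37.1% lower. The mean signal of the 48 members was 14.46 to 14.53 on induced arrays, 14.37 to 14.42 on mock-induced arrays, 14.27 to 14.36 on parental doxycycline arrays and 14.34 to 14.36 on parental vehicle arrays. The sign of the median rests on the scaling: centring the arrays on hybridization controls brought the members' median to -0.010 and that of all genes to 0.083, and centring on poly-A controls brought them to -0.26 and -0.16. Centring moves members and all genes by the same amount, so the gap between the 2 medians is fixed and carries no information on the scaling.

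Among the 38 members with a mean above 15, the level tested apart after the data had been seen, none was called. Their differences ran from -0.0080 to 0.32, that is a ratio of induced to mock-induced signal between 0.994 and 1.25, and the 95% confidence intervals of limma together spanned -0.094 to 0.40. Of these 38, 18 passed the Benjamini-Hochberg threshold, all higher, 19 had an unadjusted p under 0.05, 37 were positive and 23 had groups that did not overlap. Over all 10834 genes, 9499 (87.7%) passed, 9526 had an unadjusted p under 0.05, 6230 were positive and 8667 (80.0%) did not overlap. As for the members as a whole, the signs depend on the scaling. Of the 44 other genes at this level, 6 were called (13.6%), all lower, and the median size of their differences was 0.22. Of the 10 members at or below 15, 3 were called.

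**Figure D1:**
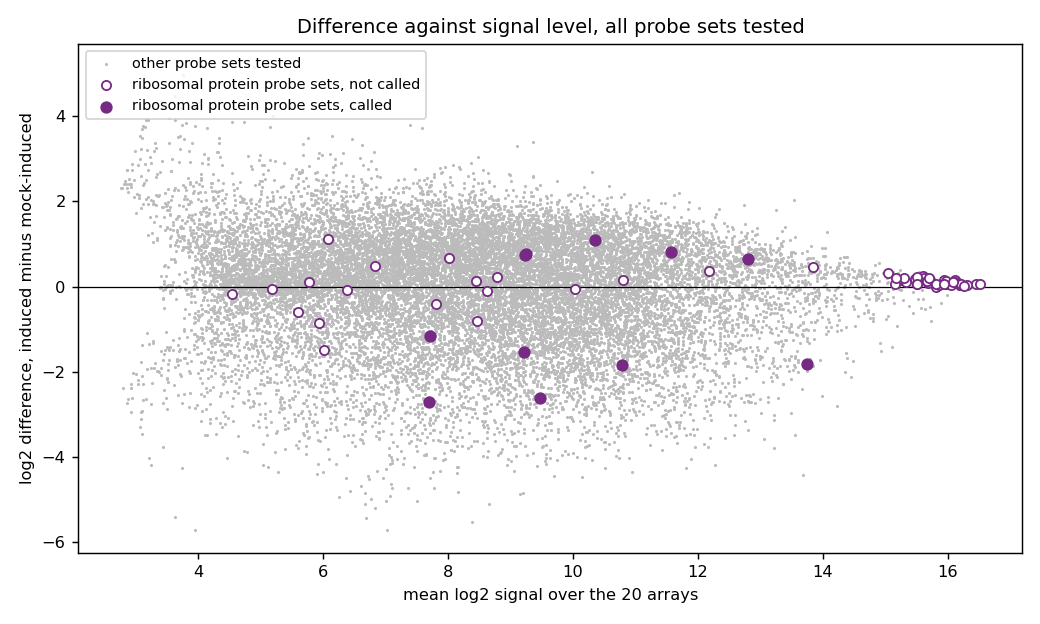
Log2 difference, induced minus mock-induced, against mean log2 signal over the 20 arrays, for all 18639 probe sets tested (grey) and the 71 ribosomal protein probe sets among them (purple, filled where the Bonferroni-adjusted p over probe sets was under 0.01). Ribosomal protein probe sets above 15 lie close to 0, and the 11 called ones are all below a mean of 14.

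By role, the P stalk proteins RPLP1 and RPLP2, which recruit the translational GTPases to the large subunit, differed by 0.062 and -0.062. The value of RPLP2 rests on a dim probe set, at 5.32 ± 0.13 in induced and 5.38 ± 0.21 in mock-induced cells. A probe set named for SNORA52 and RPLP2 averaged 15.78 after induction and 15.66 without it, a difference of 0.12. RPL39, a small protein that lines the exit tunnel, differed by 0.040, and RPL41, the shortest of the ribosomal proteins, by 0.050. RPS3, a small subunit protein at the mRNA entry channel, was at 0.19, and RPS6, the substrate of the S6 kinases, at 0.14. RPL11, which with RPL5 binds the small ribosomal RNA of the large subunit and, when free, inhibits MDM2, was at 0.14. None of these was called. RPS18, RPL32 and RPL19, members widely used as reference genes, ranged from 0.066 to 0.20. A list of 9 genes mutated in Diamond-Blackfan anaemia, an inherited failure of red cell production, held 5 tested members. These 5 (RPS19, RPS7, RPS24, RPL11 and RPL35A) ranged from -0.0080 to 0.14, and the list does not cover every such gene. By subunit, 1 of 18 small subunit members and 2 of 30 large subunit members were called, with medians of 0.073 and 0.13. The 30 members with the tract at an annotated start had a median of 0.13 with 2 called. The 12 with no match at that position, which may still hold a tract some bases away, had a median of 0.060 with 1 called. The difference was given no test.

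Values on single arrays are given for the bright members RPLP1, RPL41 and RPL39, which met none of the criteria for naming genes given under processing. They do not stand for all bright members: the SD over induced arrays was 0.023 for RPLP1 but 0.087 for RPL11. RPLP1 read 16.55, 16.57, 16.56, 16.61 and 16.56 in induced cells, against 16.50, 16.54, 16.50, 16.51 and 16.49 in mock-induced cells. RPL41 read 16.19, 16.18, 16.18, 16.25 and 16.18 in induced cells, against 16.16, 16.17, 16.15, 16.14 and 16.10 in mock-induced cells. In both genes every induced array was above every mock-induced one, though narrowly. The group means differed by 0.062 for RPLP1 and 0.050 for RPL41, and neither difference was called (limma, Bonferroni-adjusted p = 1.00 each). RPL39 read 16.19, 16.28, 16.34, 16.31 and 16.26 in induced cells, against 16.26, 16.17, 16.24, 16.26 and 16.23 in mock-induced cells, and its groups overlapped.

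RPS27L stood apart from the rest of the family. It encodes a paralog of the small subunit protein RPS27 and is a known target of p53, and its mRNA was much lower after induction. Its brightest probe set, 218007_s_at, read 12.93, 12.77, 12.98, 12.80 and 12.73 in induced cells, against 14.74, 14.64, 14.59, 14.71 and 14.61 in mock-induced cells. Parental cells lay between the 2, with 13.70, 13.57, 13.91, 13.62 and 13.95 under doxycycline and 13.55, 13.97, 13.78, 13.50 and 13.95 under vehicle. Neither EGFP-ZFP36 group overlapped the other or the parental arrays. Induced minus mock-induced, the difference was -1.82 ± 0.059 (SE, 3.53-fold lower, limma, Bonferroni-adjusted p = 8.33e-08).

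Both further probe sets of RPS27L were lower as well. Probe set 222487_s_at averaged 8.32 ± 0.24 in induced and 10.9 ± 0.19 in mock-induced cells (SD, n = 5 each), a difference of -2.61 ± 0.13 (SE). Probe set 238935_at averaged 6.18 ± 0.28 in induced and 8.89 ± 0.12 in mock-induced cells, a difference of -2.72 ± 0.12 (SE). Both were called among the 18639 probe sets tested (limma, Bonferroni-adjusted p = 1.17e-05 and 6.21e-06). The call of RPS27L held under each of the 11 alternative settings and without each of the 10 arrays, with differences between -2.72 and -1.79.

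RPS27 itself, which differs from RPS27L in a few residues and is the more abundant form in most cells, was slightly on the other side. RPS27 read 16.15, 16.16, 16.19, 16.17 and 16.13 in induced cells, against 16.05, 16.11, 16.04, 16.00 and 16.02 in mock-induced cells. Every induced array was above every mock-induced one, by little, and the difference of 0.12 ± 0.038 (SE) was not called (limma, Bonferroni-adjusted p = 1.00).

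**Figure D2:**
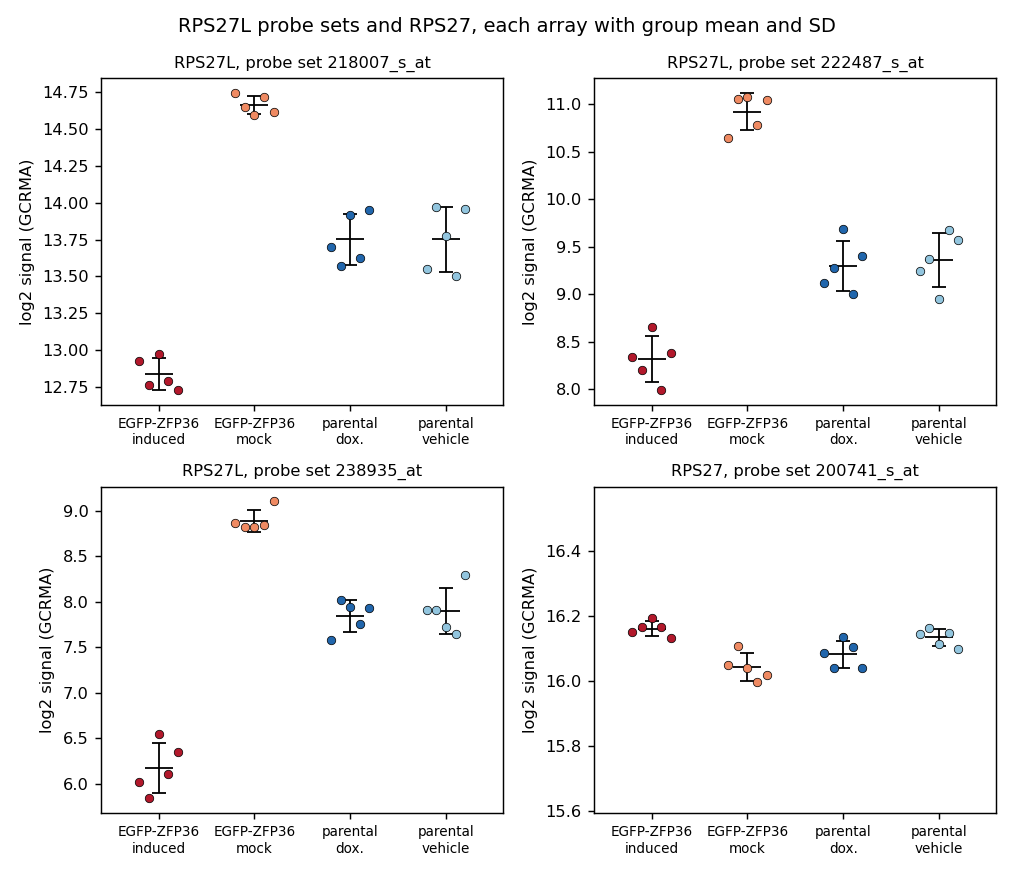
Log2 signal of the 3 RPS27L probe sets and of RPS27 on each of the 20 arrays (points), with group means and SDs over 5 arrays (bars), by group. Each RPS27L probe set is lowest in induced and highest in mock-induced EGFP-ZFP36 cells, with both parental groups between them, while RPS27 stays between 16.00 and 16.19.

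RPL22, a large subunit protein that also binds small viral RNAs of Epstein-Barr virus, was higher after induction. Its probe set 214042_s_at read 14.76, 14.78, 14.84, 14.78 and 14.82 in induced cells, against 14.33, 14.28, 14.38, 14.33 and 14.38 in mock-induced cells. The groups did not overlap, and the difference was 0.45 ± 0.040 (SE, limma, Bonferroni-adjusted p = 0.00253). The other probe set, 221726_at, averaged 13.83 ± 0.07 in induced cells and 13.18 ± 0.09 in mock-induced cells and differed by 0.65 ± 0.057 (SE, limma, Bonferroni-adjusted p = 0.00551 over probe sets), also a call lost without any 1 array. The call of RPL22 was lost with any 1 of the 10 arrays left out, although the difference stayed between 0.44 and 0.47, and it was lost when arrays were centred on the median of the genes tested or on either control, with 0.093 on poly-A controls.

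RPL22L1, the paralog of RPL22, lies outside the naming rule and moved by much more. In mice, loss of Rpl22 raises Rpl22l1. RPL22L1 read 12.73, 12.61, 12.87, 12.57 and 12.58 in induced cells, against 11.76, 11.63, 11.60, 11.52 and 11.38 in mock-induced cells. Parental cells were far higher, with 14.73, 14.71, 14.95, 14.69 and 14.74 under doxycycline and 14.70, 15.06, 14.82, 14.77 and 14.90 under vehicle. RPL22L1 rose by 1.09 ± 0.081 (SE) in induced relative to mock-induced cells (limma, Bonferroni-adjusted p = 4.65e-04) and differed by -3.27 ± 0.083 (SE), mock-induced minus parental vehicle (limma, Bonferroni-adjusted p = 8.95e-09). RPL22 was higher in both EGFP-ZFP36 groups than in the parental groups, and RPL22L1 lower in both.

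**Figure D3:**
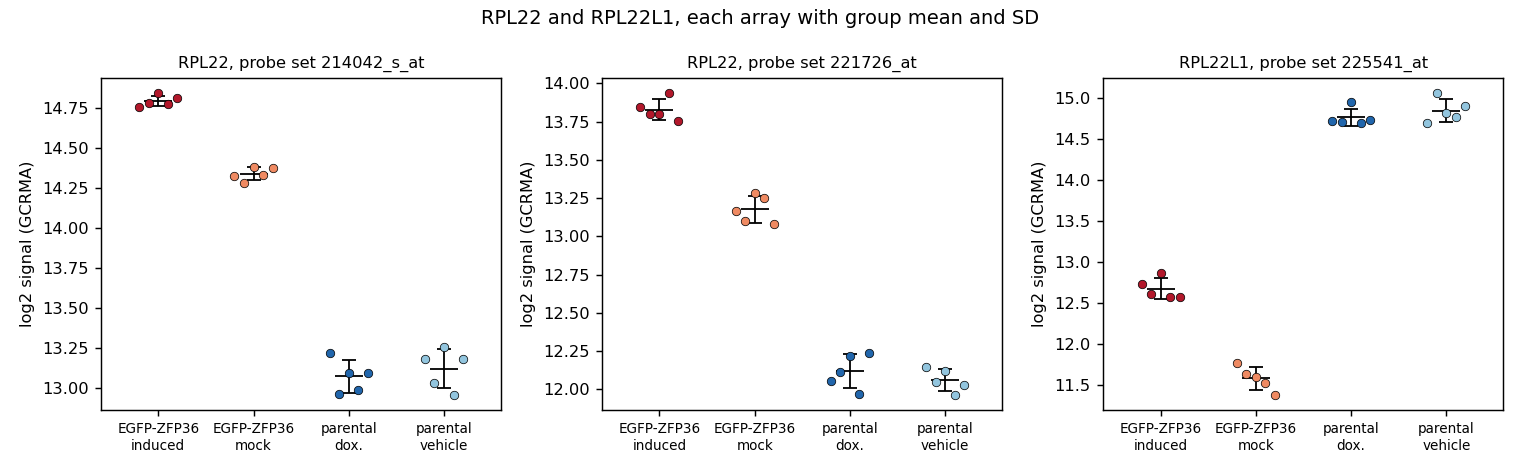
Log2 signal of both RPL22 probe sets and of RPL22L1 on each array (points), with group means and SDs over 5 arrays (bars), by group. RPL22 is lower in the parental groups than in either EGFP-ZFP36 group, RPL22L1 is highest in the parental groups, and both are higher in induced than in mock-induced cells.

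For RPL31 and RPL37 the answer depended on the probe set. RPL31, a large subunit protein near the exit of the tunnel, had 2 probe sets that were called in opposite directions, the call of the higher one being the less stable. Probe set 221593_s_at read 12.83, 12.75, 12.74, 12.51 and 12.77 in induced cells, against 11.99, 11.87, 11.83, 11.85 and 11.93 in mock-induced cells, a difference of 0.82 ± 0.064 (SE, limma, Bonferroni-adjusted p = 7.66e-04). Probe set 200962_at read 9.33, 9.24, 9.35, 9.28 and 8.90 in induced cells, against 11.03, 11.16, 10.99, 11.04 and 11.02 in mock-induced cells, a difference of -1.83 ± 0.085 (SE, limma, Bonferroni-adjusted p = 8.11e-06 over probe sets). Neither probe set had groups that overlapped. The mean of both gave -0.50 for the gene, so that no single direction can be given for RPL31, and the rise on 221593_s_at lost its call on either set of array controls. Tested among probe sets, 221593_s_at kept its call only without mock-induced replicate 1 or induced replicate 1 or 4, with differences of 0.79 to 0.87 over the 10 omissions, while 200962_at kept its call in all 10. An ending of _s_at marks a probe set that the manufacturer's design lists as able to read more than 1 transcript. The same limit holds for most members with a mean above 15, whose brightest probe set has this ending, among them RPL14, RPL41, RPLP1, RPS6 and RPS27.

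RPL37, also on the large subunit, had 4 probe sets. The brightest, 200092_s_at, averaged 16.57 ± 0.05 in induced cells and 16.50 ± 0.03 in mock-induced cells and was not called, at 0.069 ± 0.039 (SE). Probe set 224763_at averaged 8.49 ± 0.11 in induced cells and 10.03 ± 0.07 in mock-induced cells, and 224766_at averaged 7.41 ± 0.16 in induced and 8.56 ± 0.03 in mock-induced cells. These 2 were called lower, with differences of -1.54 and -1.15, while 224767_at was called higher, with 0.76, at 10.20 ± 0.10 in induced and 9.44 ± 0.06 in mock-induced cells (limma, Bonferroni-adjusted p over probe sets = 2.15e-06, 1.81e-04 and 0.00171). The call of 224767_at was lost without mock-induced replicate 1, 2 or 4 or induced replicate 2 or 4. The sources used here do not say which transcripts the dimmer probe sets read.

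**Figure D4:**
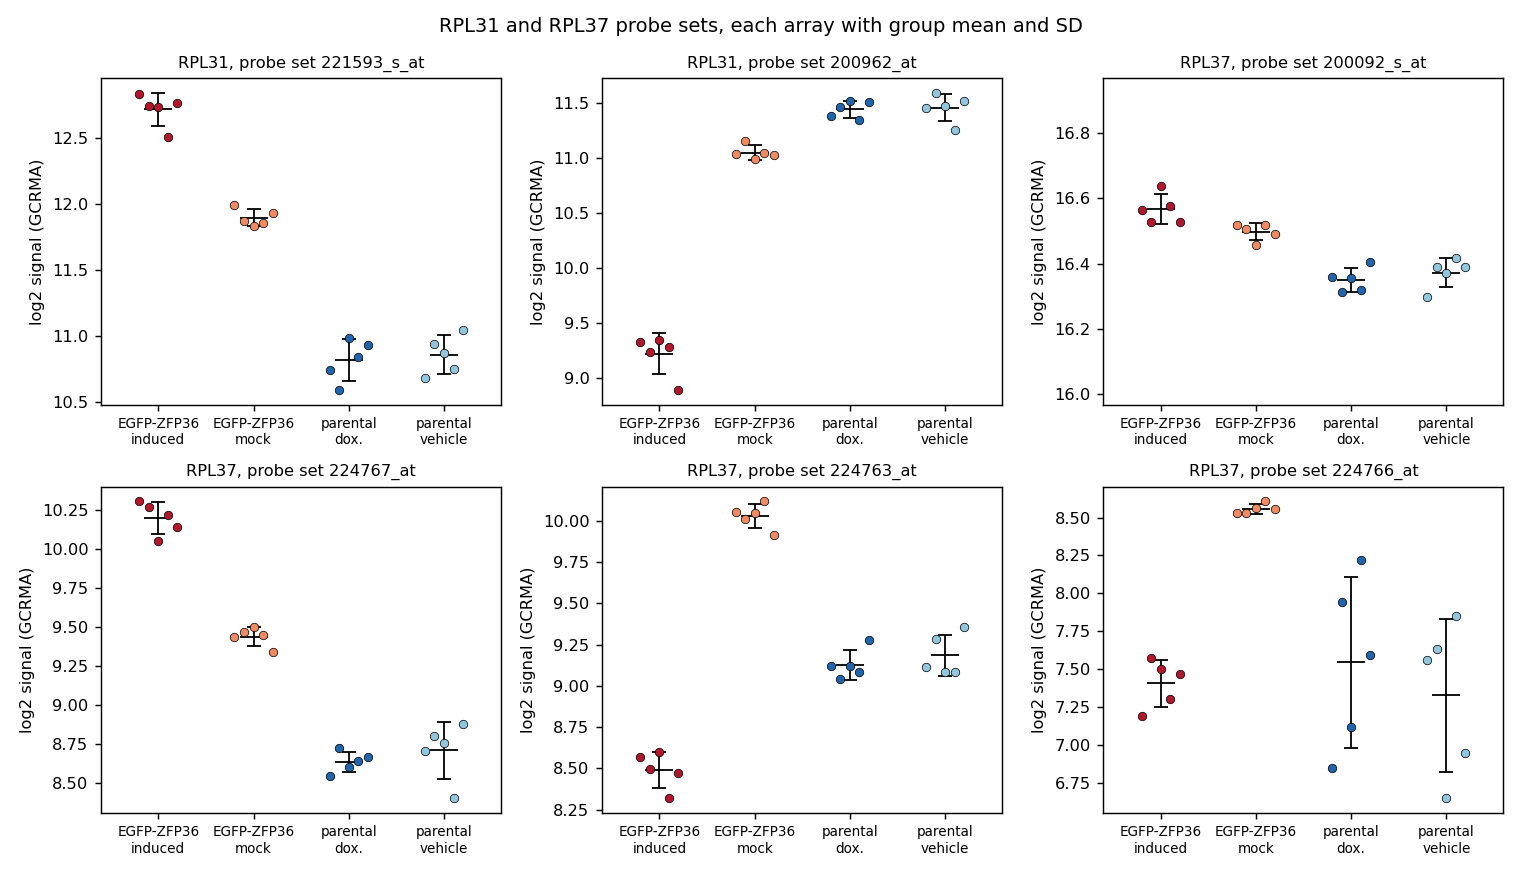
Log2 signal of the 2 RPL31 and 4 RPL37 probe sets on each array (points), with group means and SDs over 5 arrays (bars), by group, each panel with its own scale. Probe sets of 1 gene disagree: in induced relative to mock-induced cells, RPL31 differs by 0.82 on 221593_s_at and -1.83 on 200962_at, and RPL37 by -1.54 to 0.76.

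Over all 71 member probe sets tested, 6 were called lower and 5 higher (15.5%), against 8198 of 18639 probe sets (44.0%), of which 21.8 percentage points were lower and 22.1 higher. The 6 lower ones were the 3 of RPS27L, 1 of RPL31 and 2 of RPL37. The 5 higher ones belonged to RPL22, RPL31, RPL37, RPS15A and RPL35A. For RPS15A and RPL35A, named after their values were seen, the called probe set was not the brightest of the gene. RPS15A probe set 235309_at averaged 11.55 ± 0.11 in induced and 10.47 ± 0.05 in mock-induced cells, a difference of 1.08 ± 0.060 (SE), beside 0.074 ± 0.037 for the brightest one. RPL35A probe set 238026_at averaged 10.38 ± 0.09 in induced and 9.64 ± 0.11 in mock-induced cells, a difference of 0.75 ± 0.069 (SE), beside 0.066 ± 0.037, and it lost its call with any 1 of the 10 arrays left out.

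Members just short of the threshold were RPL14 and RPL36A. RPL14, a large subunit protein, read 15.01, 14.99, 14.97, 15.04 and 15.03 in induced cells, against 14.66, 14.70, 14.66, 14.73 and 14.68 in mock-induced cells, a difference of 0.32 ± 0.038 (SE, limma, Bonferroni-adjusted p = 0.0440). RPL36A, also on the large subunit, read 7.09, 6.95, 7.37, 7.43 and 7.67 in induced cells, against 6.45, 6.23, 6.04, 6.14 and 6.04 in mock-induced cells, a difference of 1.12 ± 0.13 (SE, limma, Bonferroni-adjusted p = 0.0489). Groups did not overlap in either gene. The RPL36A probe set is dim, and one named for RPL36A and the readthrough RPL36A-HNRNPH2 averaged 16.00 in induced and 15.94 in mock-induced cells, a difference of 0.056. RPL7, another large subunit protein, was on the lower side: it read 5.47, 5.13, 5.64, 5.61 and 5.50 in induced cells, against 6.22, 5.52, 6.28, 6.47 and 5.84 in mock-induced cells. The RPL7 groups overlapped, and the difference of -0.60 ± 0.17 (SE) was not called (limma, Bonferroni-adjusted p = 1.00).

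The paralogs made mainly in testis were present at modest levels. RPL39L averaged 8.44 ± 0.14 in induced and 8.56 ± 0.06 in mock-induced cells, a difference of -0.11 ± 0.068 (SE). RPL10L differed by 0.49 ± 0.17 (SE), with groups that overlapped. Neither was called (limma, Bonferroni-adjusted p = 1.00 each).

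Before any induction, the EGFP-ZFP36 line differed from the parental line in a few members. This comparison, mock-induced minus parental vehicle, shares the mock-induced arrays with the one on induction, so the 2 are not independent. Of the 48 members, RPL14 was lower and RPL22, RPL31 and RPL11 were higher (8.33%), against 2605 of 10834 genes (24.0%), with 13.2% higher and 10.9% lower. Groups did not overlap for 26 members, against 6853 of 10834 genes (63.3%), and the median difference was -0.026 over members and 0.0020 over all genes.

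RPL22 was higher by 1.22 ± 0.061 (SE) in mock-induced cells, against parental vehicle cells, where it read 13.18, 13.03, 13.26, 12.96 and 13.19 (limma, Bonferroni-adjusted p = 9.74e-06). RPL31, on probe set 221593_s_at, was 1.04 ± 0.071 (SE) higher, against parental vehicle values of 10.68, 10.94, 10.87, 10.75 and 11.04 (limma, Bonferroni-adjusted p = 2.40e-04), and its other probe set differed by -0.41. Both genes were thus lowest in parental cells on these brightest probe sets. RPL11 read 15.37, 15.38, 15.45, 15.41 and 15.41 in mock-induced cells, against 14.93, 14.84, 14.92, 14.84 and 14.96 in parental vehicle cells, a difference of 0.51 ± 0.042 (SE, limma, Bonferroni-adjusted p = 0.00168). RPL14 differed by -0.53 ± 0.048 (SE), mock-induced minus parental vehicle, with 15.29, 15.19, 15.30, 15.10 and 15.18 in parental vehicle cells (limma, Bonferroni-adjusted p = 0.00468). RPL14 and RPL11 did not overlap between these groups. The call of RPL14 was lost when any 1 array other than parental vehicle replicate 4 was left out, and that of RPL11 without mock-induced replicate 3, 4 or 5 or parental vehicle replicate 2, with little change in either difference. With the replicate number as a block, RPL22 kept its call and RPL31, RPL11 and RPL14 did not (limma, Bonferroni-adjusted p = 0.00194, 0.0399, 0.203 and 0.602).

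On its brightest probe set RPS27L was higher by 0.91 ± 0.094 (SE) in mock-induced cells relative to the parental vehicle group, with no overlap, but missed the threshold (limma, Bonferroni-adjusted p = 0.0156). Among probe sets, 10 of 71 were called, all higher in mock-induced cells (14.1%), against 3185 of 18639 (17.1%), with 10.2% higher. They belonged to RPL11, RPL22 (both), RPL31, RPL35A, RPL37, RPS15, RPS15A, RPS21 and RPS27L, and the RPS21 one, 214097_at, differed most, by 1.79 ± 0.065 (SE), with 13.01 ± 0.10 in mock-induced and 11.22 ± 0.10 in parental vehicle cells.

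Doxycycline alone did not detectably change any member. In parental cells, 0 of the 48 members were called by limma, as were 0 of all 10834 genes (0%), and at an unadjusted p under 0.05 there were 1 member and 241 genes. No member had groups that did not overlap, against 22 genes (0.203%). As deposited, the difference was negative for 40 of the 48 members and positive for 8, against 5664 and 5165 of all 10834 genes. The median was -0.015 over members and -0.0033 over all genes, and these signs were given no test. The 3 members with the smallest p were RPL39L, RPL7 and RPS27. RPL39L read 8.80, 8.60, 8.70, 8.51 and 8.77 with doxycycline, against 8.79, 8.86, 8.95, 8.74 and 8.83 with vehicle, a difference of -0.16 ± 0.065 (SE, 95% confidence interval -0.30 to -0.011, limma, Bonferroni-adjusted p = 1.00). RPL7 differed by -0.35 ± 0.24 (SE) and RPS27 by -0.052 ± 0.038 (SE). For the 38 members above 15, differences lay between -0.052 and 0.022.

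The effect of doxycycline was then compared between the 2 lines in 1 model over all 20 arrays. RPS27L differed by -1.82 ± 0.13 (SE), transgene line minus parental line (limma, Bonferroni-adjusted p = 1.83e-07), and RPL31 on 221593_s_at was higher by 0.86 ± 0.11 (SE, limma, Bonferroni-adjusted p = 0.00345). The call of RPL31 was lost without any 1 of 10 arrays (mock-induced replicates 2, 3 and 4, induced replicates 1, 2, 3 and 5, parental doxycycline replicate 1 and parental vehicle replicates 2 and 3), and the difference was 0.81 to 0.91 with each of the 20 arrays left out in turn. With the replicate number as a block RPL31 also missed the threshold (limma, Bonferroni-adjusted p = 0.0109). Without _s_at and _x_at probe sets the difference for RPL31 was -1.81, in the opposite direction. RPS27L and RPL31 were the 2 members called (4.17%), against 5190 of 10834 genes (47.9%), with 25.8% higher and 22.1% lower. RPL22, at 0.50 ± 0.082 (SE), was not called in this test (limma, Bonferroni-adjusted p = 0.0646), so that its rise was not shown to differ from the effect of doxycycline on parental cells at this threshold.

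Other genes tied to the ribosome or to TOP mRNAs are given for the same comparison, induced minus mock-induced. Of 73 mitochondrial ribosomal protein genes, which serve the separate ribosome of mitochondria, 10 were lower and 31 higher after induction (56.2%), near the 51.9% of all genes, with a median of 0.53. Of 4 ribosomal protein genes outside the naming rule, RPL22L1 rose and RPL26L1, a paralog of RPL26, fell by 0.71, while RPL36AL, a paralog of RPL36A, was at 0.20 and not called. RPL26L1 lost its call without any 1 of 9 of the 10 arrays, the exception being mock-induced replicate 3.

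Of 15 further mRNAs with known TOP tracts, 1 fell and 5 rose (40.0%, against 51.9% of all genes), with a median of 0.37. By the scan above, 10 of the 14 listed genes with a promoter window had the tract at an annotated start. PABPC1 and EIF4A2, also listed, were not above 2.27 on any array and were not tested. GAS5 was read by a dim probe set, at 4.79 in induced and 4.89 in mock-induced cells. EIF4B, a cofactor of the helicase that unwinds mRNA for scanning, read 13.48, 13.45, 13.42, 13.37 and 13.49 in induced cells, against 12.48, 12.33, 12.32, 12.30 and 12.27 in mock-induced cells, and rose by 1.10 ± 0.049 (SE, limma, Bonferroni-adjusted p = 2.50e-06). EIF3F and EIF3H, subunits of the initiation factor that holds the small subunit, rose by 0.90 and 0.80 on their brightest probe sets, but the mean of all probe sets was -0.32 for EIF3F and -2.31 for EIF3H. The direction of these 2 subunits thus rests on the probe set.

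Of 13 regulators of TOP mRNAs, 4 were lower and 6 higher (76.9%, against 51.9% of all genes), with a median of 0.73. The difference of these shares was given no test. EIF4EBP1, the repressor of cap-dependent initiation that mTOR switches off, read 12.91, 12.90, 12.90, 13.07 and 13.03 in induced cells, against 10.98, 11.00, 10.95, 10.99 and 10.95 in mock-induced cells, and rose by 1.99 ± 0.047 (SE, limma, Bonferroni-adjusted p = 2.88e-09). LARP1, which binds the TOP tract and the cap next to it, read 12.19, 12.17, 12.03, 12.17 and 12.09 in induced cells, against 13.52, 13.50, 13.60, 13.53 and 13.45 in mock-induced cells, and fell by 1.39 ± 0.048 (SE, limma, Bonferroni-adjusted p = 1.62e-07). LARP4, a relative of LARP1 that binds poly(A), fell by 1.95 ± 0.072 (SE), to 10.23 ± 0.14 in induced cells, against 12.19 ± 0.09 in mock-induced cells. None of the 3 overlapped between these groups.

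Among 28 chaperones of ribosomal proteins and factors of subunit assembly, 5 fell and 10 rose (53.6%, against 51.9% of all genes), with a median of 0.35. NMD3, the adaptor that exports the large subunit from the nucleus, fell by 1.74 ± 0.067 (SE), at 9.93 ± 0.13 in induced and 11.68 ± 0.08 in mock-induced cells. LSG1, the GTPase that releases NMD3 in the cytoplasm, rose by 1.26 ± 0.050 (SE), and LTV1, an assembly factor of the small subunit, fell by 1.24 ± 0.052 (SE). All 3 were called (limma, Bonferroni-adjusted p = 5.72e-07, 8.38e-07 and 1.48e-06).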

How the data were processed

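Total RNA of 20 samples in 4 groups of 5 was hybridized to 1-colour Affymetrix Human Genome U133 Plus 2.0 arrays. The deposited values are log2 signals that the authors computed with GCRMA, whose version the sources used here do not give, and which corrects background by probe sequence and quantile-normalizes, so that a general shift of mRNA level is not seen. Groups came from the sample labels. Gene names came from the platform annotation, and probe sets naming several genes or none were left out. A gene was represented by its brightest probe set, by mean over the 20 arrays. Those with any group mean above 4.5 were tested with lmFit and eBayes of limma 3.58.1 (R 4.3.3, 5 against 5 arrays, no covariates), with Bonferroni adjustment over all of them and calls under 0.01, the threshold and filter of the methods. All 71 member probe sets above the filter were tested in the same way over 18639 probe sets. Array controls and single values were compared by exact permutation, whose smallest p is 0.00794. Error is the SE of limma for differences and the SD for levels. The fit was tested on simulated data first. The number of arrays limits the precision.

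Named were called members with groups that did not overlap, the 3 with the smallest p in parental cells, members with probe sets called in opposite directions, and up to 3 genes of each list. Members, lists and rules were chosen with earlier results of these data known. Alternatives were other centrings (hybridization controls, poly-A controls, the median of genes tested), the mean of all probe sets, no _s_at or _x_at probe sets, other filters, Benjamini-Hochberg adjustment, a separate spread per group, all 20 arrays in 1 model, a replicate block and each array left out. The split at a mean of 15 was chosen after seeing the data. Python 3.11.15 with scipy 1.17.1, pandas 2.3.3, numpy 2.4.6 and matplotlib 3.10.9 read RefSeq start windows and drew the plots.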

Additional observations from a re-analysis of the deposited data

Results flagged for a closer look

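The effect of doxycycline differed between the EGFP-ZFP36 and parental lines for 2 members, by limma's test of the difference itself over all 20 arrays: RPS27L by -1.82 (Bonferroni-adjusted p = 1.83e-07) and RPL31, on its brightest probe set, by 0.86 (Bonferroni-adjusted p = 0.00345). The direction for RPL31 rests on the probe set, with -0.47 for the mean of its probe sets and -1.81 without _s_at and _x_at ones. Its call at 0.86 was also lost without any 1 of 10 of the 20 arrays and with the replicate number as a block.

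Outlying arrays were looked for in 18 probe sets: the brightest ones of members named by rule, and the member probe sets called between induced and mock-induced cells. Among their 72 groups of 5 arrays, 2 held an array far from the others, when chance flags about 1 in 20. Other probe sets printed above, such as those of RPL41 and EIF4B, were not examined in this way. RPL31 probe set 200962_at read 8.90 on induced replicate 5, below 9.24 to 9.35 on the other 4. RPS27L probe set 238935_at read 9.10 on mock-induced replicate 5, above 8.82 to 8.87 on the other 4. Both calls held without these arrays.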

How the results depend on the processing

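RPS27L fell in induced relative to mock-induced cells, and no member changed with doxycycline in parental cells, under all settings tried. Counts of called members (genes) for induced minus mock-induced, 3 as reported, were 1 on hybridization controls, 6 without _s_at and _x_at probe sets, 24 by Benjamini-Hochberg, 5 with all arrays in 1 model and 2 with any array left out. Without _s_at and _x_at probe sets 8502 genes were tested, against 10834 as reported, and members read only by such probe sets dropped out. By Benjamini-Hochberg 87.7% of all genes passed for induction. Shares of all genes are not given for the other settings, so member counts there cannot be judged against that background. For mock-induced minus parental vehicle, 4 as reported, they were 1 on hybridization controls, 0 on poly-A controls, 8 for the mean of probe sets, 25 by Benjamini-Hochberg, 0 with a separate spread, 9 in 1 model and 2 to 4 with an array left out. For the difference between lines, 2 as reported, they were 1 on either control, with no filter or with a separate spread, 4 without _s_at and _x_at, 21 by Benjamini-Hochberg and 1 to 2 with an array left out. Probe sets called, 11 for induction, numbered 7 on hybridization controls, 42 by Benjamini-Hochberg, 5 with a separate spread and 7 to 9 with an array left out (7 without mock-induced replicate 2 or 4 or induced replicate 2), and 10 for mock-induced minus parental vehicle became 6, 2 on poly-A controls, 6 with no filter, 43, 3, 17 in 1 model and 6 to 8 (6 without mock-induced replicate 1, 2, 3 or 4 or parental vehicle replicate 1 or 2). The median of 0.11 became -0.010 on hybridization controls, -0.26 on poly-A controls, 0.15 without _s_at and _x_at, and 0.076 to 0.12 with an array left out, lowest without induced replicate 3.

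The replicate numbers were not taken as pairs, since no label ties a number to a day and 1 same-numbered pair of induced and mock-induced arrays correlated at 0.015 and the other 4 at 0.13 to 0.22, and 3 of 5 correlated best with their own number. With the number as a block, 1 member gene was called in each of the comparisons of induction, of lines and of their difference, and 6 and 2 probe sets for induction and mock-induced minus parental vehicle.

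Directions turned as follows, and the cause was not tested. For induced minus mock-induced, the mean of probe sets gave -0.50 for RPL31, -0.47 for RPL37, -0.32 for EIF3F, -2.31 for EIF3H and -0.17 for NEFL. Without _s_at and _x_at, RPL31 was -1.83 and EIF3F -1.86. On poly-A controls, RPL14 was -0.040, RPL11 -0.22, RPS27 -0.24, RPL37 -0.29 and RPL36AL -0.16, and on hybridization controls RPL37 was -0.048. For mock-induced minus parental vehicle without _s_at and _x_at, RPL14 was 0.041 and RPL31 -0.41. In parental cells RPS27 was 0.027 on hybridization controls and 0.0089 for the mean of probe sets. For the difference between lines, RPL31 was -0.47 for the mean and -1.81 without _s_at and _x_at. Of 1023 further values of named genes, 817 kept direction and side of the threshold.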

Other observations

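Outside the members, 28 probe sets name a ribosomal protein gene together with another gene, often a small nucleolar RNA hosted in its introns, and 25 of them had a group mean above 4.5. Their differences, induced minus mock-induced, had a median of 0.069 and ran from -3.27 to 1.13. These values were read after the data had been seen and were given no test. The 11 with a mean above 15 lay between 0.056 and 0.22, within the range of the bright members. The lowest was a probe set named for SNORD54 and RPS20, at 3.14 in induced cells and 6.40 in mock-induced cells, and the highest one named for MIR6805 and RPL28, at 10.7 in induced and 9.55 in mock-induced cells, beside 0.22 for a bright probe set of the same pair.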
